A study of Rattus norvegicus with 6 samples.

Results

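The genes described here encode the nuclear-made parts of the mitochondrial respiratory chain and of the ATP synthase. They were taken by name from the array's own gene names, as every gene beginning with Nduf (complex I), Uqcr (complex III) or Atp5 (ATP synthase), every Cox gene numbered 4 to 8 (complex IV), and Cyc1 and Cycs. This gave 87 of 26456 gene names, measured by 111 probes on 228 spots. Counted by name, 39 belonged to complex I, 8 to complex III with Cyc1, 16 to complex IV, 16 to the ATP synthase and 1 was cytochrome c. The remaining members were not subunits: 4 were assembly factors of complex I (Ndufaf genes), and 3 carry old names that only resemble subunit names (Cox4nb, Atp5s and Atp5sl).

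Messenger RNA was measured in the left ventricle of 6 male rats on 1-colour arrays, with 1 array per rat. OLETF is an inbred strain that becomes obese and develops type 2 diabetes, and LETO is the related strain that serves as its non-diabetic control. The 3 LETO rats were 27, 28 and 28 weeks old (LETO 1 to 3), and the 3 OLETF rats were 27, 28 and 27 weeks old (OLETF 1 to 3), with no treatment given in the labels. Diabetes was tied to strain in every rat, so disease and genetic background cannot be told apart. The p-values set the strain difference only against the spread within strains over these 6 hearts. With 1 array per heart, that spread also holds variation between arrays.

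The respiratory chain passes electrons from NADH and succinate to oxygen and pumps protons across the inner mitochondrial membrane, and the ATP synthase uses that gradient to make ATP. Complex I takes electrons from NADH, complex II from succinate, and both hand them to ubiquinone. Complex III moves them from ubiquinone to cytochrome c, and complex IV from cytochrome c to oxygen. The heart depends on this pathway for nearly all of its ATP, and cardiomyocytes, which fill most of the ventricle by volume, are packed with mitochondria. Most subunits are encoded in the nucleus and a few core ones in the mitochondrial genome.

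Uqcrfs1 was the only subunit gene whose messenger RNA passed the test as lower in OLETF. None of the other subunit genes passed in either direction. Of 79 tested subunit genes 62, Uqcrfs1 among them, had a lower mean in OLETF. Its call did not hold under every alternative, as given below. Uqcrfs1 encodes the iron-sulfur (Rieske) protein, which takes the first electron from ubiquinol in complex III. It was measured by a single 60-base probe at chr17:40433660-40433719 on the plus strand of rn4, the build of the array's annotation. The probe is shown because the subunit result rests on it. Its capitals mark the 18 bases that encode a box with a cysteine and a histidine that help to hold the iron-sulfur cluster, so the probe reports coding sequence of the mature protein.
Uqcrfs1 probe: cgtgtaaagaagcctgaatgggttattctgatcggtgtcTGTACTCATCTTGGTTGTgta

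Cox4nb was the other called member, although it is not a subunit. The name is an older one of Emc8, a subunit of the membrane protein complex that inserts proteins into the endoplasmic reticulum, and it was named for its place beside Cox4i1. Its single probe lies at chr19:51014238-51014297 on the minus strand of rn4.
Cox4nb probe: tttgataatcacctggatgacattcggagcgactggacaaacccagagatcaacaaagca

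Levels are given as log2 of a probe's signal over the 75th percentile of its array, so 0 is the signal at that percentile and a difference of 1 is a doubling. Levels of different probes were not used to rank genes by their amount of RNA. They served to pick a gene's brightest probe, to group genes by signal level and to sum a list. Of 18816 genes tested with limma across all 6 arrays, 283 were called higher (1.5%) and 197 lower (1.05%) in OLETF at a Benjamini-Hochberg adjusted p under 0.05, or 2.55% in all. The LETO arrays shared their slide with OLETF 1, and the other two OLETF arrays had a slide of their own. With slide as a block the difference rests on OLETF 1 against the 3 LETO arrays. LETO 1 stood apart from the other LETO arrays on the second principal component, which held 23.8% of the variance, and had the lowest array weight, 0.206.

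The 4 genes that mark the set are members by their names, so their signal is a description and does not test the label. Ndufs1 (complex I), Uqcrfs1 (complex III), Cox4i1 (complex IV) and Atp5a1 (ATP synthase) were well above background on all 6 arrays. So were the defining genes of cardiomyocytes, including Myh6, Tnnt2 and Actc1. Cox8c, the testis form of a complex IV subunit, was well above background on 0 of 6 arrays and was the only member not tested, which left 86. Cox7a1 and Cox6b1, further subunits of complex IV, were not analysed here.

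Among the 86 tested members, 2 were lower and 0 higher in OLETF, against 1.05% lower and 1.5% higher of all genes. At an unadjusted limma p under 0.05 there were 3 lower and 0 higher, against 1170 lower and 1167 higher of all 18816 genes. Without LETO 1 the number of members under that p was 19, and with array weights it was 25. All genes were not counted at that p in these settings, so those counts have no share of all genes to stand beside. At the adjusted p, 3.26% of all genes were called without LETO 1 and 8.81% with array weights, and 2 members in each. The groups did not overlap for 5 members (4 lower, 1 higher), against 17.3% of all genes (8.45% lower and 8.89% higher). The median difference of the members was −0.037 on the log2 scale, against −0.0087 over all genes, and 63 of 86 had a lower mean in OLETF (73.3%), against 52.5% of all genes. Bright genes at large were lower by more than the members of like brightness. At a mean level of 5 to 7 the median difference was −0.046 over 734 genes and −0.029 over the 43 members among them. Above 7 it was −0.085 over 120 genes and −0.059 over the 21 members. For 83 of 86 members the 95% interval of the difference lay within 1.5-fold in either direction, against 14549 of 18816 genes tested. The exceptions were Uqcrfs1, Cox4nb and Cox6b2. For the rest, each interval on its own leaves out a change of 1.5-fold or more. The intervals were not adjusted for the number of genes.

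**Figure D1:**
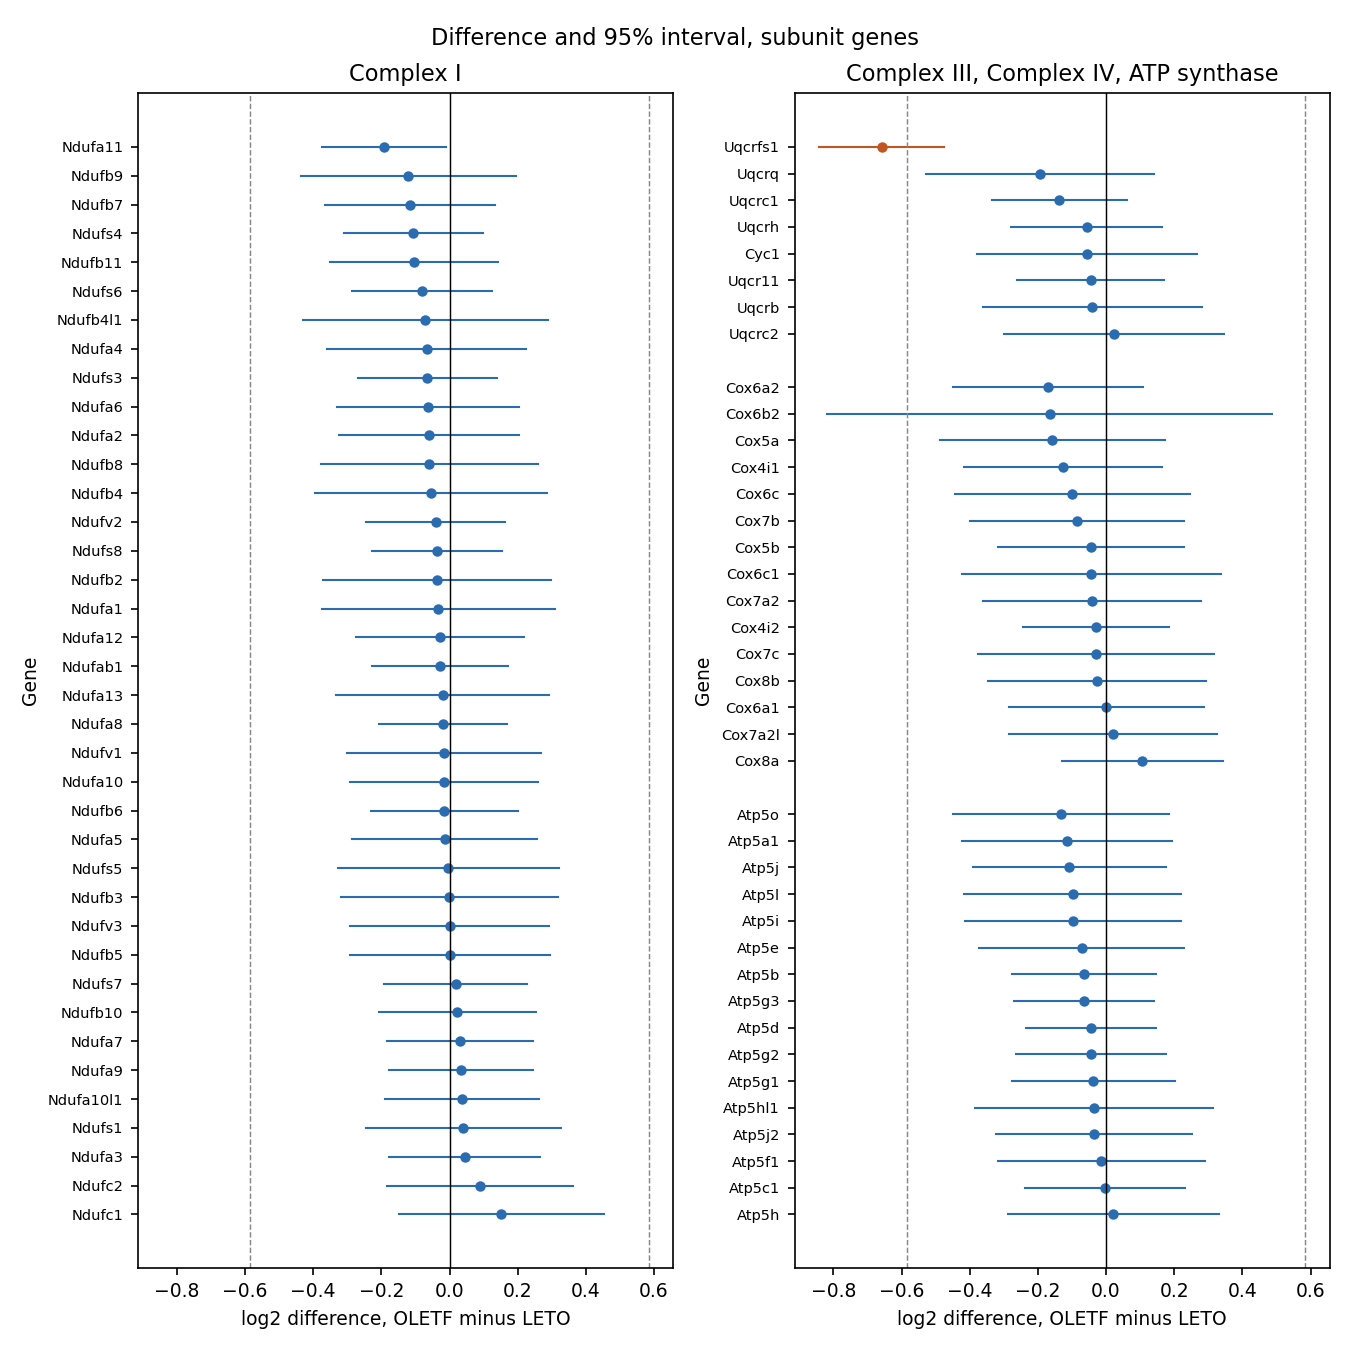
Difference in log2 signal between OLETF and LETO (x axis) for subunit genes of complexes I, III, IV and ATP synthase (y axis); points are limma estimates, lines 95% intervals, dashed lines 1.5-fold, and orange marks an adjusted p under 0.05. Uqcrfs1, at −0.66, lies apart from the other subunits drawn, whose differences run from −0.19 to 0.15.

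Complex I is the largest enzyme of the chain, and none of its 39 subunit genes was called. Their differences ran from −0.19 (Ndufa11) to 0.15 (Ndufc1), with a median of −0.027. All 39 intervals lay within 1.5-fold. Ndufv1, which binds NADH and its flavin, had levels of 6.73, 7.12 and 7.06 across the LETO hearts, given here and below in the order of their numbers, and 6.95, 7.0 and 6.90 across the OLETF hearts. All 3 OLETF hearts thus lay between LETO 1 and the other LETO hearts, and the difference was −0.016 ± 0.12 (SE, adjusted p = 0.987). Ndufs1, the largest of the iron-sulfur subunits, had 5.40, 5.75 and 5.76 in LETO and 5.76, 5.62 and 5.66 in OLETF (difference 0.041 ± 0.12, adjusted p = 0.964). The low value was again LETO 1, and the other 5 arrays lay close together.

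The other core subunits of complex I that carry iron-sulfur clusters or line the path to ubiquinone were likewise not called. Their differences included −0.066 for Ndufs3, 0.019 for Ndufs7, −0.037 for Ndufs8 and −0.041 for Ndufv2, each with overlapping groups. The largest values belonged to accessory subunits of the membrane arm. Ndufa11 had 4.15, 4.16 and 4.16 in LETO and 3.99, 3.96 and 3.93 in OLETF. All OLETF hearts were below all LETO hearts, yet the difference of −0.19 ± 0.077 did not pass over all genes (adjusted p = 0.363). Ndufb9 differed by −0.12 ± 0.13 (adjusted p = 0.874) and Ndufc1 by 0.15 ± 0.13 (adjusted p = 0.789), both with overlapping groups.

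Some names in this group need care. Ndufa4 was counted here by its name, although its protein is now placed in complex IV, and its difference was −0.066. Ndufa10l1 and Ndufb4l1 are named as copies of Ndufa10 and Ndufb4, and their probes may also bind the transcript of the parent gene. The accessions of Ndufa10l1 matched both Ndufa10 and Ndufa10l1 in RefSeq, so Ndufa10 may enter the count more than once. The probes of Ndufa10l1 and Ndufb4l1 were kept apart from those of the parents. Ndufa10l1 and Ndufb4l1 differed by 0.036 and −0.071, beside −0.015 and −0.054 for the parents.

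Complex III held the called subunit. Uqcrfs1 had levels of 6.11, 6.13 and 6.15 in LETO and 5.52, 5.45 and 5.45 in OLETF. The 3 hearts of each strain lay within 0.1 of each other, with a wide gap between the strains. Its mean went from 6.13 ± 0.018 to 5.47 ± 0.040 (SD, n = 3 each) and so fell by 0.66 ± 0.078 (SE, limma adjusted p = 0.00686, 95% interval −0.84 to −0.47), a 1.58-fold lower signal. With slide as a block the difference was −0.61 (adjusted p = 0.156), and without OLETF 3 it was −0.65 (adjusted p = 0.0547), so the size held while the call was lost. The part that slide plays was not tested further.

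The other 7 subunits of complex III were not called. Uqcrc1 and Uqcrc2 are the core proteins that form the large matrix part of the complex. Uqcrc1 had 5.20, 5.06 and 5.12 in LETO and 4.99, 4.95 and 5.03 in OLETF. The groups did not overlap, but by a narrow margin, and the difference was −0.14 ± 0.083 (adjusted p = 0.636). Uqcrc2 had 5.64, 6.08 and 6.04 in LETO and 6.03, 5.85 and 5.95 in OLETF, a difference of 0.024 ± 0.14 (adjusted p = 0.981). Cyc1, cytochrome c1, which receives the electron from the iron-sulfur protein, had 6.86, 7.35 and 7.25 in LETO and 7.11, 7.13 and 7.05 in OLETF. Its OLETF hearts lay inside the LETO range, with a difference of −0.056 ± 0.14 (adjusted p = 0.954). Uqcrh, the hinge protein between cytochrome c1 and cytochrome c, differed by −0.057 ± 0.094, and Uqcrq, a small accessory subunit, by −0.19 ± 0.14 (adjusted p = 0.737). The partners of the iron-sulfur protein in the same complex therefore had no called difference, and the interval of each lay within 1.5-fold. Whether Uqcrfs1 differed from them was not tested.

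**Figure D2:**
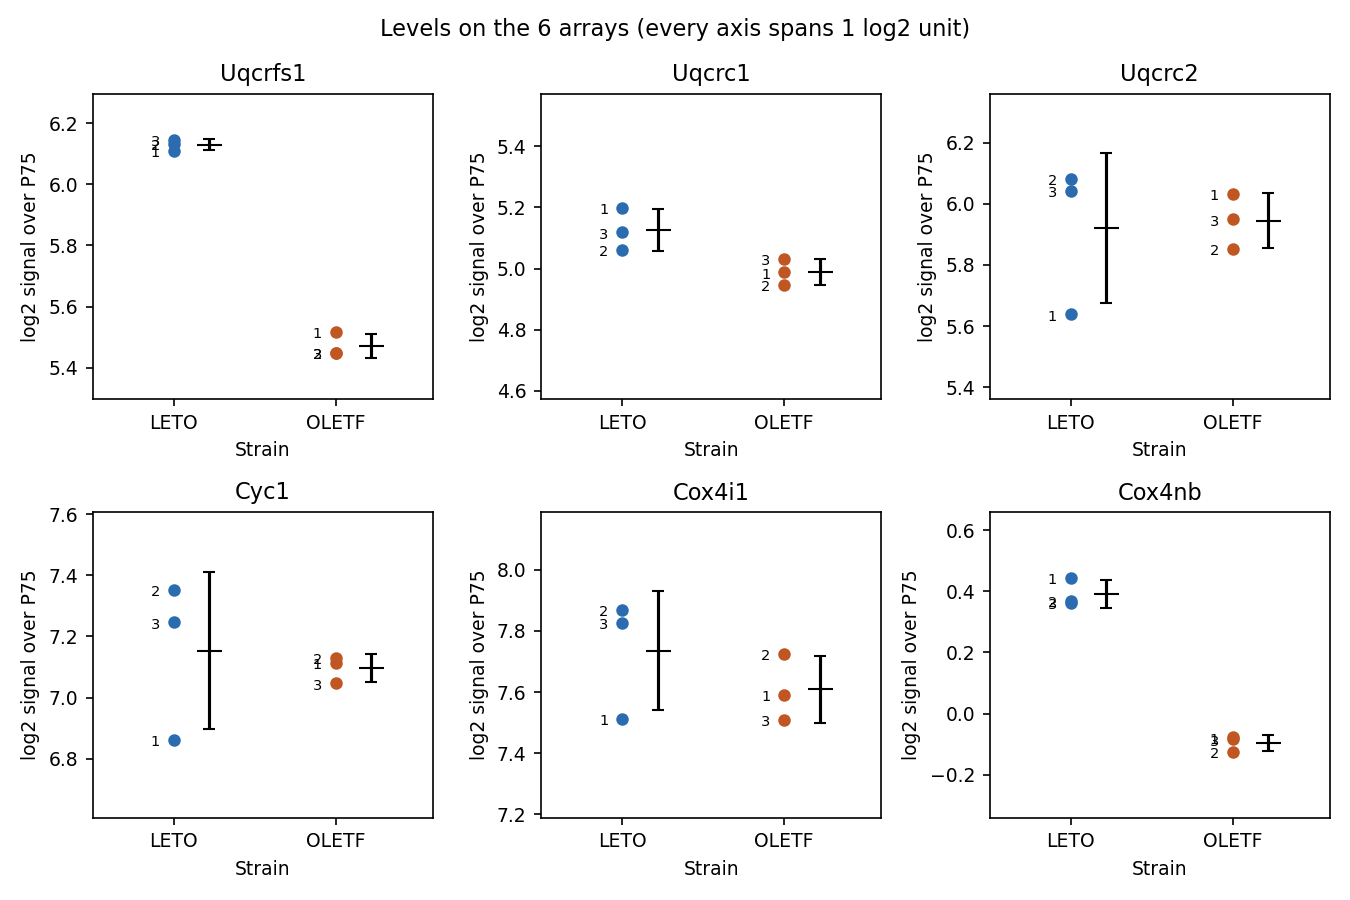
Log2 signal over the array's 75th percentile (P75, y axis) of 4 other genes beside Uqcrfs1 and Cox4nb, by strain (x axis), each numbered point 1 heart and each bar the mean ± SD of 3; every y axis spans 1 log2 unit. The strains are far apart for Uqcrfs1 and Cox4nb, narrowly apart for Uqcrc1, and overlap for Uqcrc2, Cyc1 and Cox4i1, where LETO 1 is the lowest or nearly the lowest point.

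None of the 15 tested complex IV genes was called, and their differences ran from −0.17 (Cox6a2) to 0.11 (Cox8a), with a median of −0.043. Cox6c1 was counted among them by its name, although its accession matched Cox6c-ps1 in RefSeq, a pseudogene symbol. Cox4i1, the common form of the largest nuclear-encoded subunit, had 7.51, 7.87 and 7.83 in LETO and 7.59, 7.73 and 7.51 in OLETF. The groups overlapped and the difference was −0.13 ± 0.12 (adjusted p = 0.84). Cox4i2, the form known from lung and from low oxygen, differed by −0.030 ± 0.091. Cox5a and Cox5b, which flank the catalytic core, differed by −0.16 ± 0.14 and −0.045 ± 0.12.

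Several complex IV subunits come in a heart and muscle form and a common form, and both forms were tested for Cox6a and Cox8, with none called. Cox6a2, the heart form, had 8.34, 8.59 and 8.55 in LETO and 8.27, 8.50 and 8.19 in OLETF (difference −0.17 ± 0.12, adjusted p = 0.706). Its common form Cox6a1 had 6.47, 6.85 and 6.80 in LETO and 6.70, 6.77 and 6.64 in OLETF (difference 0.00052 ± 0.12). Both overlapped between strains. Cox8b, the heart form of the smallest subunit, differed by −0.027 ± 0.14, and its common form Cox8a by 0.11 ± 0.10 (adjusted p = 0.829). Cox7a2, the common form of another small subunit, differed by −0.041 ± 0.14. Cox6b2, a form known from testis, was the least even member, with 4.29, 3.87 and 4.41 in LETO and 3.74, 4.65 and 3.68 in OLETF. OLETF 2 was the highest of all 6 and OLETF 1 and OLETF 3 the lowest, so its difference of −0.17 ± 0.28 had the widest interval of any member (−0.82 to 0.49).

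The ATP synthase had the narrowest range of differences of the 4 complexes. None of its 16 genes was called, and the differences ran from −0.13 (Atp5o) to 0.022 (Atp5h), all with intervals within 1.5-fold. Although 15 of the 16 had a lower mean in OLETF, no gene had groups that did not overlap. Atp5a1, the alpha subunit of the catalytic head, had 8.11, 8.55 and 8.44 in LETO and 8.25, 8.34 and 8.16 in OLETF (difference −0.12 ± 0.13, adjusted p = 0.88). The OLETF hearts again fell between LETO 1 and the other LETO hearts. Atp5b, the beta subunit with the catalytic sites, had 5.07, 5.10 and 5.25 in LETO and 5.10, 5.02 and 5.11 in OLETF (difference −0.065 ± 0.089).

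The turning stalk, encoded by Atp5c1, Atp5d and Atp5e, had differences of −0.0030, −0.044 and −0.071. A second tested probe of Atp5d gave −0.63 ± 0.70, with levels from −5.80 to −2.67, near the bottom of the signal range. The 3 genes that encode the same ring protein of the proton channel, Atp5g1, Atp5g2 and Atp5g3, had −0.037, −0.044 and −0.065. Atp5o, which links head and stator stalk, had −0.13 ± 0.13 (adjusted p = 0.849), and Atp5j, a coupling factor of the stator, had −0.11 ± 0.12.

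Cycs, the mobile carrier between complexes III and IV, had 6.22, 6.73 and 6.66 in LETO and 6.63, 6.57 and 6.48 in OLETF. The difference was 0.025 ± 0.14 (adjusted p = 0.981), with LETO 1 as the one low array. The 4 complex I assembly factors all had a higher mean in OLETF, with differences of 0.021 to 0.079 and 0 called. Ndufaf1 was the member whose groups did not overlap upward, with −0.52, −0.48 and −0.41 in LETO and −0.40, −0.39 and −0.41 in OLETF, but OLETF 3 and LETO 3 were nearly equal and the difference was 0.072 ± 0.079 (adjusted p = 0.872).

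Cox4nb fell where its neighbour Cox4i1 did not pass the test. Cox4nb had 0.44, 0.37 and 0.36 in LETO and −0.08, −0.13 and −0.08 in OLETF. The strains were well apart and the hearts within each strain close, with a difference of −0.49 ± 0.079 (SE, n = 3 each, limma adjusted p = 0.0244, 95% interval −0.67 to −0.30), a 1.40-fold lower signal. With slide as a block the difference was −0.47 (adjusted p = 0.324). The call was also lost without LETO 2, LETO 3 or any 1 of the OLETF arrays, with differences of −0.50 to −0.47 and adjusted p of 0.084 to 0.129. The difference between the 2 neighbours was not tested.

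In RefSeq (GRCr8) Emc8 and Cox4i1 are transcribed away from each other, with starts 148 bases apart on chromosome 19. The 147 bases between the starts, chr19:65630236-65630382, are shown on the plus strand, along which Cox4i1 runs, because it separates these starts. The full gene models lie only 55 bases apart, so part of the stretch falls inside a model of one gene or the other.
Between Emc8 and Cox4i1: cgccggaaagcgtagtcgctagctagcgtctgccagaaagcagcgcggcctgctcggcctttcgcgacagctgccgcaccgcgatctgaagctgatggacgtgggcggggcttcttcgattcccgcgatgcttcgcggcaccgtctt
It held none of the 4 motifs searched. Just inside Cox4i1, from base 4 to base 30 after its start at chr19:65630386-65630412, lay a pair of matches to the ETS motif, in capitals, which falls in the promoter window of both genes.
ETS pair: CTTCCGGtgcgggacccgctCTTCCGG
The called and the uncalled gene therefore share this window.

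The promoters of the members held some motifs known from nuclear respiratory genes more often than promoters at large. The window ran from 250 bases before to 50 after each RefSeq start, 66 members had one, and each motif was searched on both strands. CCGGAAG, the motif of ETS factors such as GABPA, was in 19 of 66 (28.8%), against 8.75% of 33469 promoters. The NRF1 motif was in 12 (18.2% against 4.25%), the YY1 motif AANATGGCG in 11 (16.7% against 3.01%) and the motif of estrogen-related receptors, CAAGGTCA, in 2 (3.03% against 1.52%). A match is a description of the letters and not a shown binding site. No motif was found in the window of Uqcrfs1, whose 250 bases before the start, chr17:34186352-34186601 on the plus strand of GRCr8, are shown because it was the called subunit.
Before Uqcrfs1: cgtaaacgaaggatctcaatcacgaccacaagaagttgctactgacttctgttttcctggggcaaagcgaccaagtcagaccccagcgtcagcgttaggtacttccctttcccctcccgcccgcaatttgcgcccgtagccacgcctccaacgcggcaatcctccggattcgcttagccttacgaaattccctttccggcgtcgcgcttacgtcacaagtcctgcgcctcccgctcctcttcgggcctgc

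The members varied together from heart to heart. LETO 1 was the lowest of the 3 LETO arrays for 80 of 86 members, against 8314 of 18816 genes tested. The distance of the median member from its own mean was −0.20 in LETO 1, 0.15 in LETO 2 and 0.11 in LETO 3. For OLETF 1, OLETF 2 and OLETF 3 it was −0.012, 0.031 and −0.088. LETO 1 was thus low, LETO 2 and LETO 3 high, and the OLETF hearts in between. The median SD of the members was 0.201 in LETO and 0.073 in OLETF, against 0.152 and 0.105 over all genes. LETO 1 was also the only LETO rat of 27 weeks, so that heart and that age cannot be told apart within LETO.

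**Figure D3:**
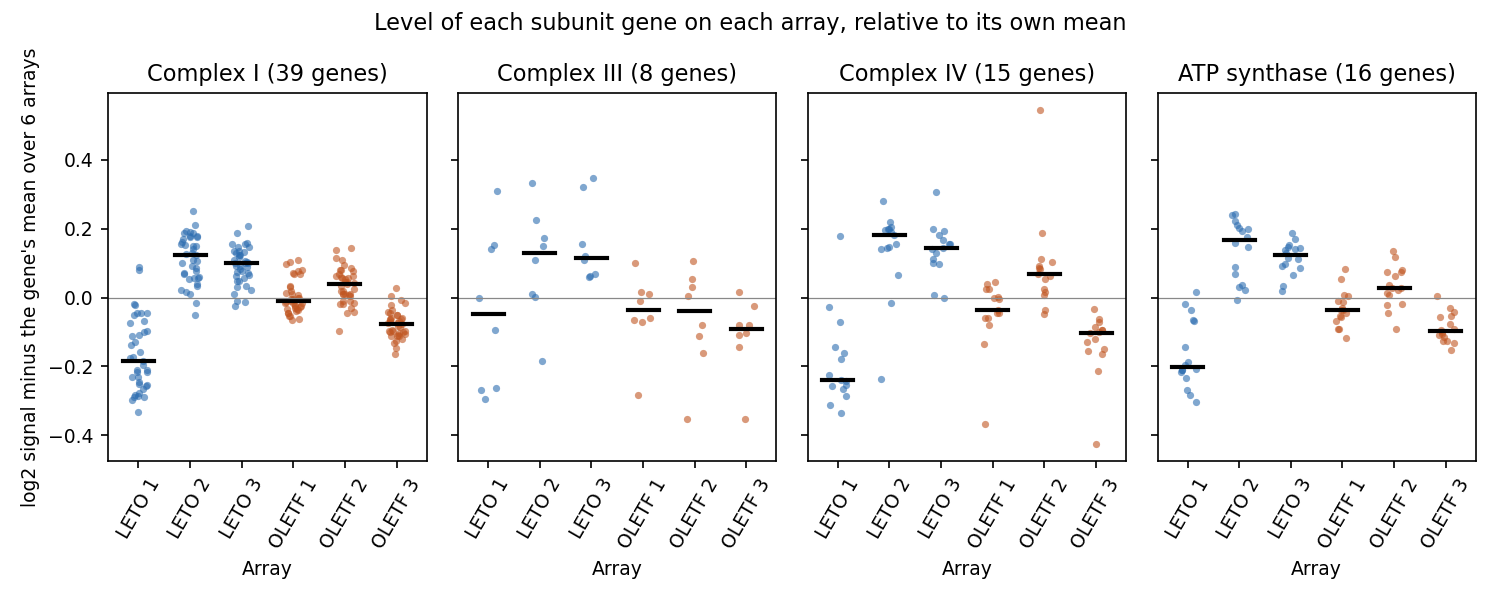
Log2 signal of each subunit gene minus its own mean over 6 arrays (y axis), by array (x axis) and complex; each point is 1 gene and the black bar is the median. The median of LETO 1 (blue) is the lowest in complex I, complex IV and ATP synthase, those of LETO 2 and LETO 3 are the highest, and those of the OLETF arrays (orange) lie between; in complex III the OLETF 3 median is the lowest.

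The dip in LETO 1 differed between genes and with the strength of the signal. The median distance of LETO 1 from the mean of LETO 2 and LETO 3 was −0.33 over the members, against −0.019 over all genes. It was −0.40 in complex IV, −0.36 in the ATP synthase, −0.31 in complex I and −0.11 in complex III. Bright genes at large also dipped. At a mean level of 5 to 7 the distance was −0.21 over 734 genes and −0.31 over the 43 members among them, and above 7 it was −0.21 over 120 genes and −0.40 over the 21 members. Uqcrfs1, at −0.030, and Cox4nb, at 0.079, did not share the dip, and their differences were −0.67 and −0.46 without LETO 1.

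**Figure D4:**
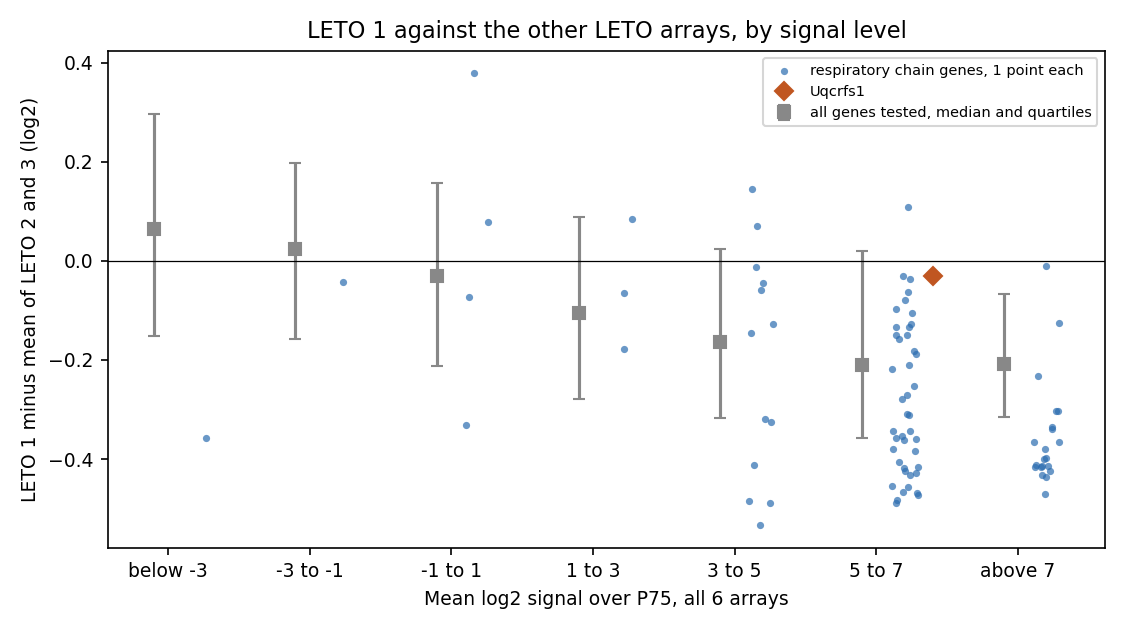
LETO 1 minus the mean of LETO 2 and LETO 3 (log2, y axis) by mean signal level (x axis, log2 over the 75th percentile); blue points are single members, grey squares and bars the median and quartiles of all genes tested, and the diamond is Uqcrfs1. Most members above level 5 lie under the median of all genes at that level, whereas Uqcrfs1 lies near 0.

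The small shift of the members as a group had no settled direction across settings. Their median was −0.037 with all arrays, −0.128 without LETO 1 (80 of 86 lower), 0.019 without LETO 2 (35 lower) and 0.0074 without LETO 3 (42 lower). Without OLETF 3 it was 0.00055. Quantile normalization, which evens out differences that grow with signal, gave 0.020 with 29 of 86 lower, and age as a covariate gave 0.030 with 29 lower. Within the first slide it was −0.037 with 59 lower. In each of these settings, 0 of the named members other than Uqcrfs1 and Cox4nb were called.

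**Figure D5:**
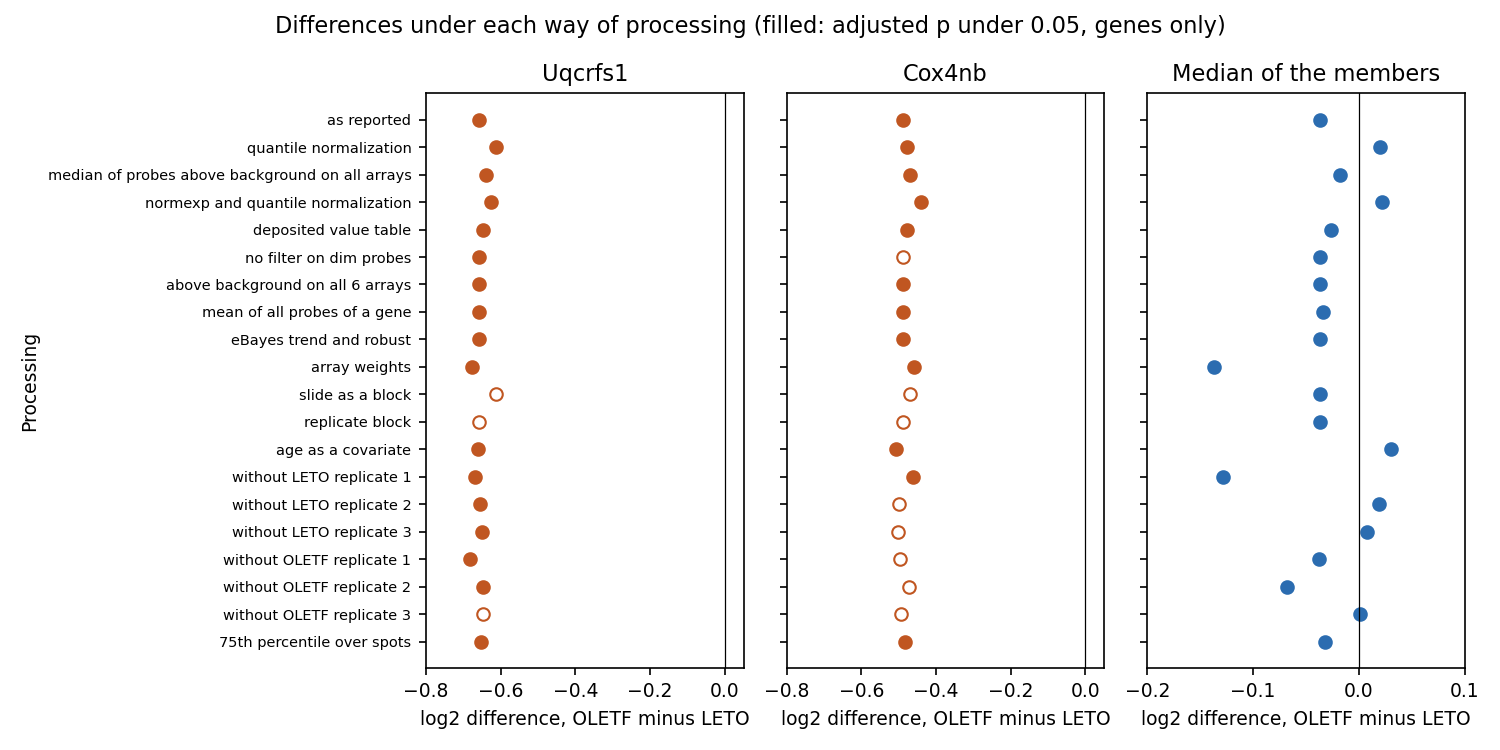
Log2 difference between OLETF and LETO (x axis) of Uqcrfs1, Cox4nb and the median of all members under each way of processing (y axis); filled points in the gene panels have an adjusted p under 0.05 and open ones do not. Uqcrfs1 stays between −0.68 and −0.61 and Cox4nb between −0.51 and −0.44, whereas the median of the members falls on both sides of 0.

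Genes that work with the chain were tested in the same fit. Complex II, which has no member in the set by its names, had 0 of 4 called, with differences from −0.032 (Sdhd) to 0.045 (Sdhb). Of 21 further assembly and maturation factors 0 were called. Cox15, needed for the heme a of complex IV, had −0.76, −0.38 and −0.35 in LETO and −0.94, −0.95 and −0.98 in OLETF, a difference of −0.46 ± 0.12 (adjusted p = 0.148), and Ttc19, which helps to clear fragments of the iron-sulfur protein from complex III, had −0.23 ± 0.086 (adjusted p = 0.305). In both the groups did not overlap.

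Regulators of mitochondrial gene expression and biogenesis had 0 of 22 called. Ppara, a receptor for fatty acids, had −0.60, −0.72 and −0.38 in LETO and 0.07, −0.16 and −0.03 in OLETF, all OLETF hearts above all LETO hearts, at 0.52 ± 0.12 (adjusted p = 0.0805). Tfb2m, which helps to start transcription of the mitochondrial genome, had −0.25 ± 0.097 (adjusted p = 0.34). Ppargc1a, the coactivator, and Nrf1 had −0.19 and −0.15, and Tfam, which packages mitochondrial DNA, had 0.092. These 3 were chosen after their values were seen.

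Among 20 genes that bring electrons in by side routes or make ubiquinone, 0 were called. Suox, sulfite oxidase, which gives its electrons to cytochrome c, had 0.45, 0.24 and 0.24 in LETO and 0.79, 0.79 and 0.77 in OLETF, a difference of 0.48 ± 0.093 just outside the threshold (adjusted p = 0.0506). Sqrdl, which passes electrons from sulfide to ubiquinone, had 0.38 ± 0.12 (adjusted p = 0.227), also with all OLETF hearts above all LETO hearts. Among 13 genes of ATP export and phosphate transfer 0 were called, with Ckm, muscle creatine kinase, at −0.20 ± 0.083 (adjusted p = 0.402).

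The share of cardiomyocyte RNA bears on any level in whole ventricle, where fewer cells of a type and less RNA per cell cannot be told apart. Of 12 cardiomyocyte genes 0 were called and 11 had a lower mean in OLETF, with a median of −0.095 and the largest differences in Mybpc3 (−0.22) and Myl2 (−0.18). Their summed level ran from 11.6 to 11.8 in LETO and from 11.5 to 11.8 in OLETF, so the strains overlapped. Endothelial, fibroblast, smooth muscle, macrophage, adipocyte and atrial markers had 0 called. Their largest differences were in Vwf (−0.33) and Emcn (0.27) of endothelium, Postn (−1.75) and Dcn (0.40) of fibroblasts, and Myh11 (−0.79) and Tagln (−0.78) of smooth muscle. In the other lists they were in Emr1 (−0.38) and Mrc1 (0.20) of macrophages, Cidea (0.26) and Fabp4 (0.20) of adipocytes, and Myl7 (−2.03) and Sln (−0.66) of atrium. Postn, Myl7 and Sln varied widely between hearts, with an SE of 0.63, 1.51 and 1.72, and their groups overlapped. Of 9 lymphocyte markers 5 were bright enough to test, and of these Cd3g (−0.96, limma adjusted p = 0.0177) and Nkg7 (−0.84, limma adjusted p = 0.0219) fell. Of 4 tested red cell markers the anion exchanger Slc4a1 rose (3.19, limma adjusted p = 0.00593). The 3 globin genes went the other way, with Hbb at −2.22, Hbb-b1 at −1.95 and Hba-a2 at −0.94. Their groups overlapped and none was called. The summed lymphocyte level was 1.22 to 1.52 in LETO and 0.680 to 0.778 in OLETF. With slide as a block 0 genes of these lists were called. Cd3g and Nkg7 were lower in OLETF, as Uqcrfs1 and Cox4nb were, whereas Slc4a1 was higher. In the lymphocyte markers Cd2 and Cd3d the strains overlapped. The part of these markers in the results for Uqcrfs1 and Cox4nb was not tested.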

How the data were processed

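Left-ventricular RNA (3 rats per strain) was read on Agilent rat 4x44K v3 arrays. Per the file headers the scanner files hold spot intensity, background-subtracted and detrended, from Feature Extraction 10.7.3.1, while the submitters' processing notes name version 9.1. The authors' deposited values are the same intensity divided by a constant per array (column medians 0.163, 0.154 and 0.158 in LETO, 0.154, 0.157 and 0.159 in OLETF), linear and not centred. The source name of LETO 2 repeats replicate number 1, and titles were followed.

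Control and outlier spots were left out, spots of a probe averaged on the log2 scale, and each array's 75th percentile over probes (886 to 1228 intensity units) subtracted. Between 75.5% and 79.8% of spots were well above background and 0 were saturated. A probe entered the test if all 3 arrays of either strain had it well above background (21484 of 30367), and the brightest stood for its gene. The strains were compared by limma 3.58.1 under R 4.3.3 (lmFit, eBayes, Benjamini-Hochberg over all genes). Scripts were tested on simulated data. Of the members 76 were matched to RefSeq by accession.

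The members, lists and tests were chosen with earlier results of these data known. The text names every called member, the 3 largest differences of each complex, a fixed set of core and isoform subunits, every called gene of the related lists and the 2 largest differences of each list of partner genes. Some genes under this rule are left out here. The rats share replicate numbers only, with deviation correlations of −0.0882, −0.137 and −0.008, so no replicate block entered the main test. Python 3.11.15, pandas 2.3.3, numpy 2.4.6 and matplotlib 3.10.9 were used, with version 1.17.8 of the data.table package. Alternatives covered scaling, background correction, the deposited values, the filter, the probe rule, eBayes options, array weights, slide, replicate and age terms, and leaving out each array.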

Additional observations from a re-analysis of the deposited data

How the results depend on the processing

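Over 20 alternatives Uqcrfs1 ranged from −0.68 to −0.61 (limma adjusted p 0.000915 to 0.156) and Cox4nb from −0.51 to −0.44 (adjusted p 0.00395 to 0.324). Uqcrfs1 lost its call with the slide block, with the replicate block (adjusted p = 0.0536) and without OLETF 3. Cox4nb was lost under 8 alternatives, among them the replicate block (adjusted p = 0.115) and no filter on dim probes (adjusted p = 0.0839). Of the other 36 members taken by the naming rule 0 were called under any alternative, and 22 changed sign in at least 1.

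Of the members 29 had a lower mean with quantile normalization, 27 with normexp and quantile normalization, 29 with age as a covariate, and 35 to 80 when 1 array was left out. The number of members called was 1 without a filter, 0 with slide as a block, 0 with the replicate block, and 0 to 2 when 1 array was left out. The median of complex III was −0.15 with array weights and −0.14 to −0.031 when 1 array was left out. Over all genes 240 were called without a filter (median −0.030, more genes tested), 1658 with array weights, 103 with slide as a block, 301 with the replicate block and 216 to 614 without 1 array. Calls in the related lists numbered 1 without a filter, 5 with eBayes trend and robust, 14 with array weights, 0 with slide as a block and 1 to 6 without 1 array. The causes were not tested. Scaling to the 75th percentile over spots was chosen after seeing the data and gave 450 calls. Of 20 members with several tested probes, 19 agreed within 0.2.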

Other observations

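The subunits encoded by the mitochondrial genome were measured by 12 probes, matched by their position on the mitochondrial chromosome and their description after the data had been seen. With limma 0 of 12 were called, 11 had a lower mean in OLETF and the median difference was −0.12, with a range from −0.18 (chain 5 of complex I) to 0.31 (chain 6). Subunit 1 of complex IV had 8.43, 8.55 and 8.60 in LETO and 8.29, 8.74 and 8.03 in OLETF. Cytochrome b, the mitochondrially encoded partner of the iron-sulfur protein in complex III, had 8.05, 8.30 and 8.22 in LETO and 8.04, 8.32 and 8.0 in OLETF, with a difference of −0.069 ± 0.12 (limma adjusted p = 0.937). The groups overlapped in both.

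Across all 6 hearts the order was not that of the nuclear-encoded subunits, although within each strain it was the same. The distance of the median mitochondrially encoded transcript from its own mean was −0.013 in LETO 1, 0.13 in LETO 2 and 0.056 in LETO 3. For OLETF 1, OLETF 2 and OLETF 3 it was −0.11, 0.12 and −0.19. LETO 2 and OLETF 2 were high and OLETF 3 low. LETO 1, the lowest of all 6 for the nuclear-encoded subunits, was near the mean here, though still the lowest of LETO. This difference in order across the strains was not tested.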
